A study of Mus musculus with 8 samples.

Results

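The genes of excitation-contraction coupling and of the ion channels around it were followed through the regions where H3K27ac, the histone acetylation mark of active promoters and enhancers, differed between Nrip1KO and control myotubes. The 36 genes were chosen by name for their function, out of 21938 protein-coding mouse genes, by a rule that used no measured value, although earlier results of these data were known when they were chosen. A region was given to a gene when that gene had the annotated transcript start nearest to the centre of the region, and a wider count took every region centred within 100 kb of a start. By the first rule 52 of 11180 differential regions belonged to the 36 genes, of which 22 were increased and 30 decreased in Nrip1KO myotubes (42.3% increased, 95% Wilson interval 29.9 to 55.8, counting error over regions only). Over all differential regions 3917 were increased and 7263 decreased (35.0% increased), a share inside that interval. By the wider rule 76 regions did, 28 increased and 48 decreased, and both rules together covered 82 regions.

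H3K27ac was mapped by CUT&RUN, in which an antibody directs a nuclease to the marked chromatin and the released DNA is sequenced. The 8 libraries formed 4 groups of 2, namely primary mouse myotubes of the genotypes Nrip1KO and Ctrl, each with the H3K27ac antibody and with IgG, to ask which regions gain or lose the mark without RIP140, the nuclear receptor coregulator that Nrip1 encodes. The cells were satellite cells of the gastrocnemius muscle, passaged in culture and differentiated for 4 days, and nuclei were pooled before they were divided between antibodies. Only 2 lists of positions were analysed, 1 per direction, holding regions the authors called at a 2-fold or greater difference, so the size of each difference, the spread between the replicates, the IgG background and the depth are unknown here and every count is a description without a test. According to the methods, the floxed Nrip1 mice were C57BL/6J. They were bred with Cre mice given as C57BL/6JN, and Cre-negative littermates served as controls. The study names the cells as those of its striated muscle line, in which the MCK promoter drives Cre in heart and skeletal muscle, while the labels give the genotype alone. The methods state for mouse work in general that young adult animals of either sex were used, and how many animals these cultures came from, with their own age and sex, is not given in the sources used here. The MCK promoter becomes active as muscle cells differentiate, and the Nrip1 transcript of these cultures was not analysed here.

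In skeletal muscle an action potential runs along the surface membrane and down the T-tubules, where the voltage-sensing calcium channel pulls open the ryanodine receptor of the sarcoplasmic reticulum and calcium floods the fibre. Junctional proteins hold the membranes together, buffers store the calcium inside the reticulum, and the SERCA pumps return it so that the fibre relaxes. Fast and slow fibres use different pumps and buffers, and calcium that stays raised with repeated activity is read by CaMKII.

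Stretches of 8 regions are shown for the genes described in most detail. They were chosen after motif matches had been located, to show what the sequence of a called region looks like around a match. Capitals mark each match of a searched motif, sequences are from the GRCm38.p6 assembly (mm10), and each is printed 5′ to 3′ on the strand of its gene. From decreased regions, Atp2a2 is shown for chr5:122503256-122503344 (minus strand, upstream of the gene) with an estrogen-related receptor (ERR) motif, Cacna1s for chr1:136055726-136055812 (plus strand, intron) and Cacng1 for chr11:107698364-107698450 (minus strand, downstream of the gene) with AP-1 motifs, and Scn4a for chr11:106351694-106351780 (minus strand, intron) with 1 of the 2 TEAD motifs of its region. From increased regions, Cacng1 is shown for chr11:107713138-107713224 (minus strand, intron) with a TEAD and an AP-1 motif, Trdn for chr10:33073005-33073094 (plus strand, upstream of the gene) with a MEF2 motif, Camk2g for chr14:20750828-20750957 (minus strand, intron) with 2 MEF2 motifs, and Abcc9 for chr6:142702273-142702301 (minus strand, first exon) with an E-box followed by a MEF2 motif.
Atp2a2, decreased: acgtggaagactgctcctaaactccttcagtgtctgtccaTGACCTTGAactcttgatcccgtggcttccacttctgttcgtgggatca
Cacna1s, decreased: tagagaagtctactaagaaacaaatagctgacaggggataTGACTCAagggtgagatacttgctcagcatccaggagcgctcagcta
Cacng1, decreased: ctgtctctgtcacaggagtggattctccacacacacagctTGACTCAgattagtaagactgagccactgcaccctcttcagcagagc
Scn4a, decreased: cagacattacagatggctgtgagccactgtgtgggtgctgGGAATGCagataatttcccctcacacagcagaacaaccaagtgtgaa
Cacng1, increased: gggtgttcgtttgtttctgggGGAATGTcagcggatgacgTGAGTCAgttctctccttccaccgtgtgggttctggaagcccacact
Trdn, increased: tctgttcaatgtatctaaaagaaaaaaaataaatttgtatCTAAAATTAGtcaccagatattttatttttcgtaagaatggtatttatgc
Camk2g, increased: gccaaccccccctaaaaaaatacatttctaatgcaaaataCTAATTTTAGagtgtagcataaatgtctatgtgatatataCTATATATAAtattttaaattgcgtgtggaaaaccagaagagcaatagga
Abcc9, increased: CAGCTGgcctcccaccaccCTAAAAATAA

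Differential regions lay nearest to 22 of the 36 genes (61.1%, against 25.4% of all protein-coding genes). Increased regions were nearest to 13 of them (36.1%), compared with 10.6% of all protein-coding genes, and decreased regions were nearest to 17 (47.2%), compared with 17.8%. In 8 genes both directions occurred, 5 had increased regions only, 9 had decreased regions only, and 14 had none. Over all 21938 protein-coding genes these counts were 673, 1663, 3226 and 16376. Within 100 kb of a start, increased regions were found for 15 genes (41.7%, against 24.1% of all protein-coding genes) and decreased regions for 21 (58.3%, against 42.7%). At least 1 region of either direction lay there for 29 genes (80.6%, against 57.9%). Thus the shares were above the background under both rules, and the gap was narrower within the fixed distance. The background may include genes that carry no H3K27ac in these cells, which the lists cannot show, and the part of this was not tested. When starts of annotated genes of any type competed for a region, increased regions were nearest to 7 members (19.4%) and to 6.71% of protein-coding genes. Among regions at least 1 kb wide they were nearest to 6 members (16.7%) and to 4.24%.

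**Figure D1:**
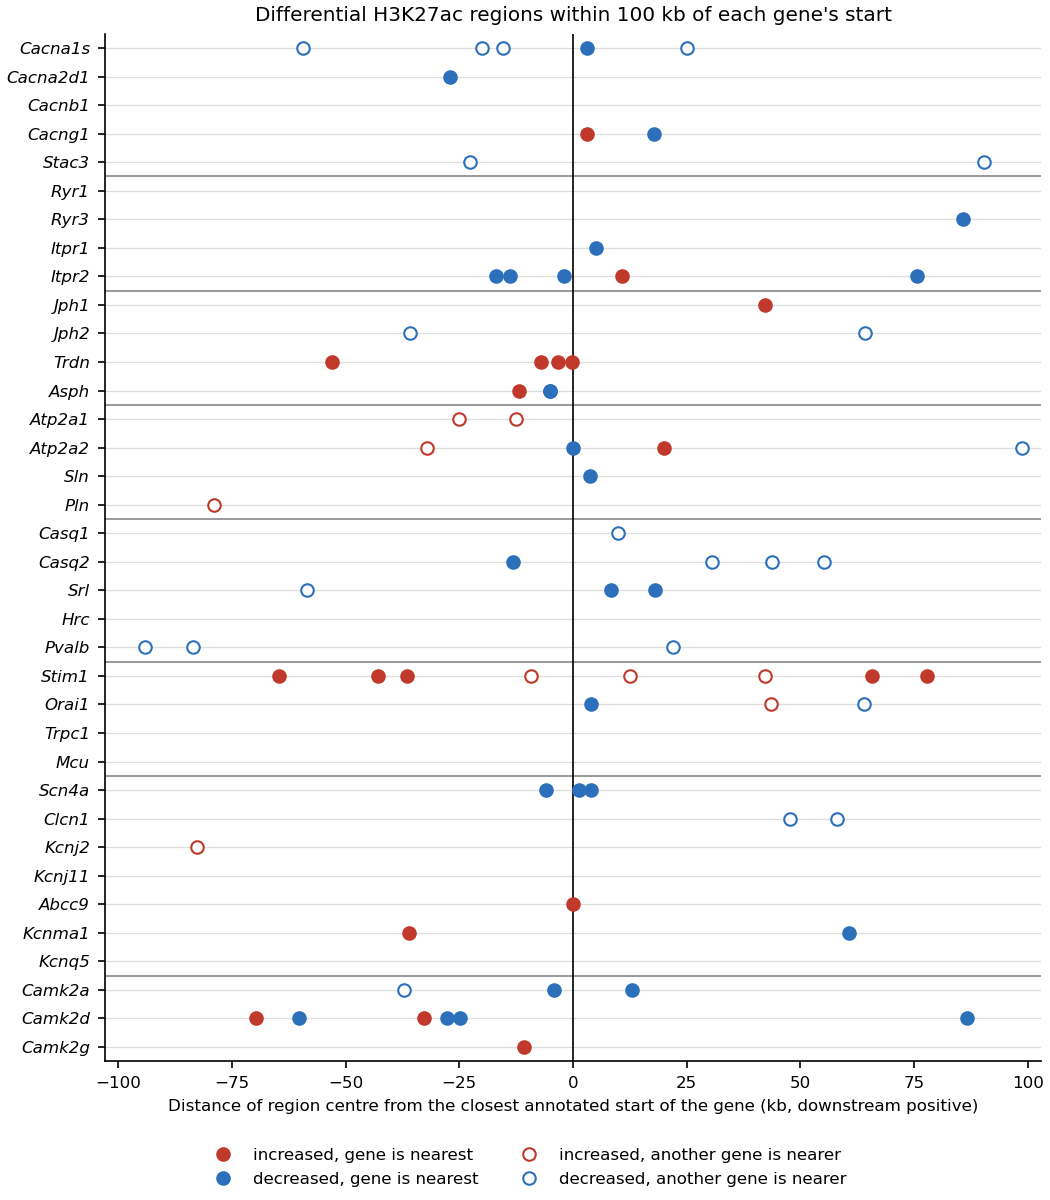
Each row is a gene, grouped by role from the voltage sensor at the top to CaMKII at the bottom, and each circle is a differential H3K27ac region at the distance of its centre from the closest annotated start of that gene (kb, downstream positive). Filled circles are regions nearest to the gene and open circles are regions nearer to another gene, in red where increased and blue where decreased in Nrip1KO myotubes. A few circles overlap, and 6 regions nearest to a gene but over 100 kb away are not drawn. Red circles alone stand in 8 rows, among them Trdn and Stim1, and blue circles alone in 14, among them every calcium buffer with a region. Both colours stand in 7 rows, and 7 rows are empty.

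The 36 genes were longer than most and had more annotated starts. Their median gene length was 60.9 kb against 17.4 kb for all protein-coding genes, and the median number of annotated starts was 5 against 3. Taken per length of the genome to which each gene was nearest (7.44 Mb for the 36 genes), there were 6.99 regions per Mb (2.96 increased and 4.03 decreased), compared with 4.10 (1.44 and 2.66) over all protein-coding genes. The part of gene length and of the number of starts in the counts of genes was not tested.

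**Figure D2:**
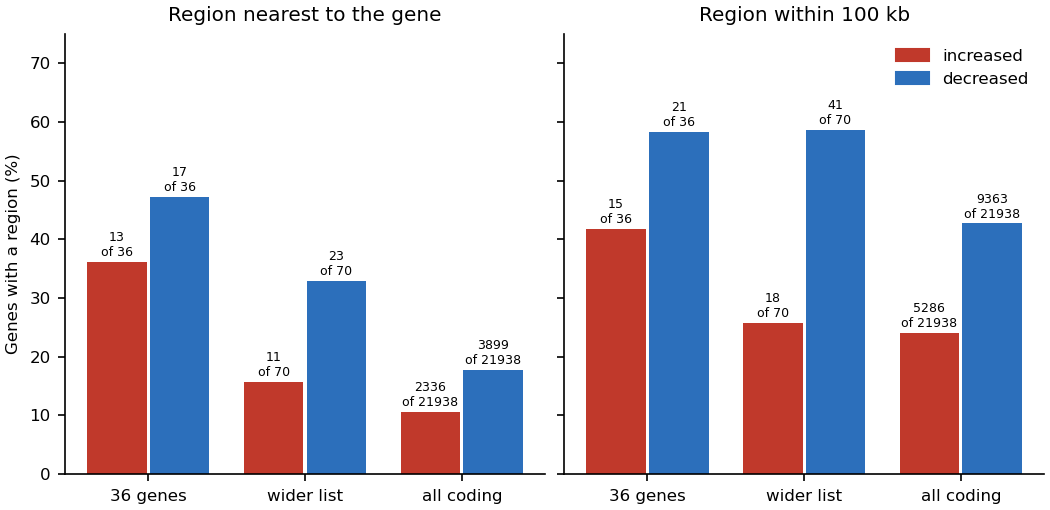
Bars give the percentage of genes with an increased (red) or decreased (blue) region, with the number of genes above each bar, for the 36 genes, a wider list of 70 calcium handling and channel genes, and all 21938 protein-coding genes. The left panel counts regions to which the gene is nearest and the right panel counts regions within 100 kb. In the left panel 36.1% and 47.2% of the 36 genes have a region, above 10.6% and 17.8% of all genes.

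The voltage sensor of the T-tubule had 2 increased and 3 decreased regions in 3 of its 5 genes (60.0%, against 25.4% of all protein-coding genes). Cacna1s encodes the pore-forming subunit that senses the membrane voltage. Its nearest region was decreased, 829 bp wide and intronic, 3.12 kb downstream of a coding start (chr1:136055610-136056438). Another 4 decreased regions lay within 100 kb but nearer to Tmem9, Kif21b and Igfn1, so that all 5 regions around Cacna1s had the same direction. Cacng1, the gamma subunit of the same channel, carried both directions, with an increased intronic region of 816 bp centred 2999 bp from its single annotated start (chr11:107713115-107713930) and a decreased region of 691 bp downstream of the gene, 17.9 kb from that start. Cacna2d1, the subunit that brings the channel to the membrane, had a decreased region of 501 bp (chr5:15998333-15998833, 27.1 kb) and an increased one of 501 bp 123 kb from its closest start, both within the gene. Stac3, the adaptor that couples the sensor to the release channel, had no region of its own and 2 decreased regions within 100 kb, the closer at chr10:127478743-127479243 (22.7 kb). Cacnb1, the beta subunit, had none, and the closest region to it was 116 kb away.

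The release channels had 1 increased and 7 decreased nearest regions (12.5% increased, against 35.0% of all regions), a small count beside a list in which most regions were decreased. Ryr1, the release channel of mature skeletal muscle, had no region within 100 kb, and the closest, an increased one, was 117 kb away. Ryr3, a second ryanodine receptor that is prominent in developing muscle, had 2 decreased intronic regions of 501 and 985 bp (the closer at chr2:112822390-112822890), 85.9 and 106 kb from the closest start, which belongs to a retained-intron transcript. Itpr1 and Itpr2 encode receptors for inositol trisphosphate, a slower release pathway that also serves nuclear calcium signals. Itpr1 had 1 decreased region of 949 bp at chr6:108217785-108218733, 5.06 kb into the gene from a coding start. Itpr2 had 5 regions, of which 4 were decreased. Of these, chr6:146398493-146399298 lay 1.91 kb from an internal coding start, chr6:146307707-146308774 and chr6:146310833-146311780 were intronic 14.0 and 17.0 kb from a retained-intron start, and chr6:146070278-146072931, with 2654 bp the widest, lay downstream of the gene. The increased region of Itpr2 was intronic and 634 bp wide (chr6:146185827-146186460).

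The junction of the T-tubule and the reticulum showed more increased regions than decreased, 6 against 2, and 4 of the 6 belonged to a single gene. Over all regions 35.0% were increased. That gene, Trdn, lies on chromosome 10, where 69.1% of regions were increased, and Asph on chromosome 4, where 7.53% were. The only nearest region of the junction on other chromosomes was that of Jph1. Trdn encodes triadin, which links the release channel to calsequestrin. Its 4 regions were all increased. The region at chr10:33194658-33196937 (2280 bp) covered an internal coding start 115 kb from the 5′ end of the gene, with its centre 170 bp from that start, and a region of 790 bp lay 3.23 kb before it. The other two were upstream of the whole gene, at 7.04 kb (2411 bp) and 53.0 kb (1282 bp) from the first start. Jph1, a junctophilin that tethers the membranes, had 1 increased region of 1383 bp 42.1 kb from its closest start, at chr1:16961418-16962800, with its centre just past the end of Jph1 and inside the antisense gene Gm28376. Asph, whose shorter transcripts encode junctin and junctate and whose long transcript encodes an aspartate hydroxylase, had 2 wide decreased regions. One lay 5.08 kb upstream of the gene (chr4:9673168-9675681, 2514 bp) and the other was intronic, 5.15 kb before a cluster of internal coding starts (2535 bp). The remaining region of Asph, 824 bp wide in an intron, was increased. Jph2 had no region of its own and 2 decreased regions within 100 kb, the closer at chr2:163433465-163434410 (35.9 kb).

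**Figure D3:**
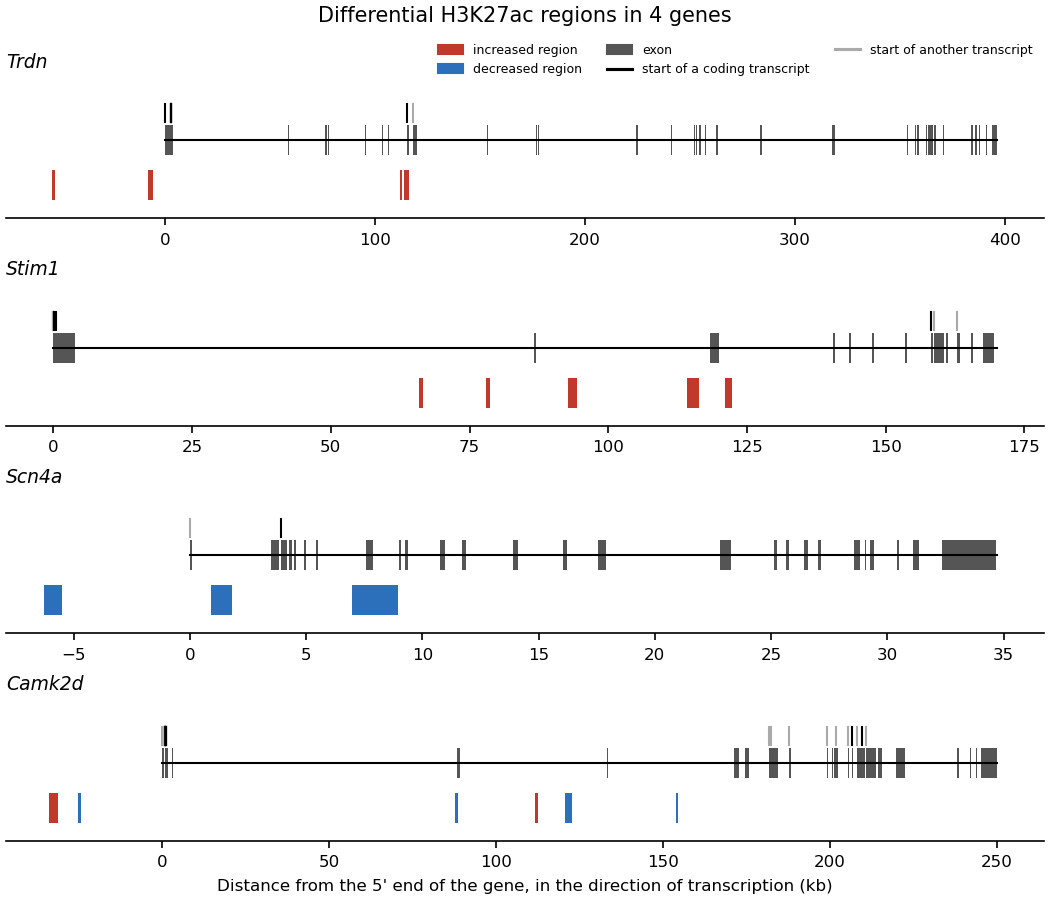
Each panel shows a gene from its 5′ end in the direction of transcription (kb), with exons as grey boxes on the line, starts of coding transcripts as black ticks, starts of other transcripts as light grey ticks, and regions nearest to the gene below it in red where increased and blue where decreased. Regions and exons are drawn to scale, except that the thinnest are widened to stay visible, and each panel has its own scale. All 4 regions of Trdn and all 5 of Stim1 are red, all 3 of Scn4a are blue and close to its 5′ end, and the 6 regions of Camk2d are of both colours.

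Of the calcium pumps, Atp2a2 had a decreased region over its start. Atp2a2 encodes SERCA2, the pump of slow fibres and heart. The decreased region was 2474 bp wide (chr5:122500879-122503352), its centre lay 58 bp from an annotated start, and 65.2% of its bases were G or C, the highest value among the 52 regions. The second region of Atp2a2 was increased, intronic, 501 bp wide and 20.0 kb from a retained-intron start. Atp2a1, the pump of fast fibres, had no region of its own, and 2 increased regions within 100 kb sat near the starts of Sh2b1 (chr7:126475354-126476034, 12.6 kb from Atp2a1) and Tufm. Sarcolipin and phospholamban are small proteins that hold the pumps back. Sln, which encodes the first, had a decreased region of 735 bp centred in its untranslated sequence 3.82 kb from its start (chr9:53853621-53854355). Pln had 1 increased region 78.9 kb upstream (chr10:53258357-53259259), nearest to Cep85l.

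No increased region was found around the 5 calcium buffers. The 3 regions nearest to them and all 11 regions within 100 kb were decreased, while 35.0% of all regions and 29.8% of all pairs of a gene and a region within 100 kb were increased. Of the 11, 3 lay around Srl on chromosome 16, where 7.80% of regions were increased. Casq2, the calsequestrin of slow fibres and heart, had an intronic region of 906 bp 13.3 kb before an internal start (chr3:102112069-102112974), and 3 further decreased regions nearby were nearest to Vangl1. Srl encodes sarcalumenin, a calcium-binding protein of the longitudinal reticulum, and had 2 decreased intronic regions. One was 680 bp wide, 8.44 kb from a start (chr16:4533038-4533717), and the other, at chr16:4503401-4506799, was 3399 bp wide, the widest of the decreased regions nearest to any of the 36 genes. A decreased region of 10700 bp at Glis2 lay 58.5 kb from Srl. Casq1, the calsequestrin of fast fibres, had no region of its own, but a decreased region of 5742 bp lay 9.85 kb from one of its starts, inside Pea15a (chr1:172201238-172206979). Pvalb, the cytosolic buffer of fast fibres, had 3 decreased regions within 100 kb, the closest at chr15:78181482-78183058 (22.0 kb), and Hrc, a calcium-binding protein of the reticulum lumen, had none.

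Store-operated calcium entry refills the reticulum from outside the cell. Stim1, the sensor of the filling state, lies on chromosome 7, where 97.7% of all regions were increased. It had 5 increased regions, all intronic, and with those nearer to other genes 8 increased and no decreased region within 100 kb. The 5 lay at chr7:102333788-102334422, chr7:102345765-102346434, chr7:102360610-102362165, chr7:102382012-102384243 and chr7:102388784-102390175, between 36.5 and 77.8 kb from the closest start of Stim1. They all became regions of other genes when starts of every gene type were used, since the pseudogene Gm18255 lies in the same part of Stim1. The closest region to a start of Stim1 was also increased, 9.17 kb upstream at chr7:102258247-102259024, but was nearest to Rhog. Orai1, the pore that Stim1 opens, had 1 decreased region of 1051 bp within the gene, 3.87 kb from a start (chr5:123018682-123019732). Within 100 kb but nearer to Tmem120b, it also had an increased region at 43.5 kb (chr5:123058478-123059238) and a decreased one at 64.0 kb. Trpc1, a cation channel linked to the same pathway, and Mcu, the pore of the mitochondrial calcium uniporter, had no region within 100 kb.

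The surface channels had 4 increased and 6 decreased regions. Scn4a, the sodium channel that carries the muscle action potential, lies on chromosome 11, where 16.2% of all regions were increased. It had 3 decreased regions close to its starts. They were 866 bp wide at chr11:106351496-106352361 (1.36 kb downstream of the first start), 1977 bp wide 4.04 kb downstream of the coding start, and 771 bp wide 5.87 kb upstream of the gene. Abcc9, the sulfonylurea receptor subunit of the ATP-sensitive potassium channel, had an increased region of 1401 bp over its start, with the centre 53 bp upstream (chr6:142701668-142703068). Kcnj11, the pore of that channel, had none within 100 kb. Kcnma1, the large-conductance calcium-activated potassium channel, had an increased region of 814 bp (chr14:23590398-23591211, 36007 bp from its closest start) and 2 decreased regions of 2348 and 1337 bp, 60.8 and 459 kb away. The latter lay past the end of the gene. Kcnj2, an inward rectifier that sets the resting potential, was the nearest gene to 2 increased regions and 1 decreased region, but all 3 were more than 100 kb away, and a closer increased region 82.6 kb upstream (chr11:110983273-110983773) was nearest to Kcnj16. Clcn1, the chloride channel that steadies the muscle membrane, had 2 decreased regions within 100 kb that were nearer to Zyx and Epha1, the closer at chr6:42359647-42360787 (47.7 kb). Kcnq5, a voltage-gated potassium channel, had none, and its closest region was 350 kb away.

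The CaMKII genes encode isoforms of the kinase that reads repeated calcium signals. The 3 that are among the 36 genes all had nearest regions, as did 25.4% of all protein-coding genes. Camk2b, which is in the wider list, had no nearest region and 2 decreased regions within 100 kb. Camk2d, Camk2g and Camk2a have 26, 17 and 6 annotated starts, against a median of 3, and the part of this was not tested. Camk2d had 6, the most of the 36 genes. In it 4 were decreased, namely chr3:126571125-126571625 upstream of the gene and chr3:126683899-126684399, chr3:126716931-126718981 and chr3:126750103-126750734 in introns, and 2 were increased, namely chr3:126562239-126564975 upstream and chr3:126707943-126708807 in an intron. The increased region upstream, 2737 bp wide, was the widest of the increased regions nearest to any member, and of the differential regions only the decreased one of 501 bp lay between it and the gene. Camk2g had 1 increased intronic region of 1632 bp 10.8 kb from its closest start (chr14:20749377-20751008). Camk2a, best known in neurons, had 2 decreased regions, 4.23 kb upstream (501 bp) and 13.0 kb downstream (1916 bp) of coding starts.

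Over the whole data set the direction of regions differed between chromosomes, and 11 of the 36 genes lie on the 4 chromosomes that stood apart. Of all differential regions, 97.7% were increased on chromosome 7 and 69.1% on chromosome 10, against 7.53% on chromosome 4 and 7.80% on chromosome 16. Trdn (chromosome 10) and Stim1 (chromosome 7) together held 9 of the 22 increased regions and had no decreased nearest region. Of the 9 members on these chromosomes, the other 7 had no nearest region of either direction. Within 100 kb, increased regions were found for 4 of the 9, and decreased regions for 1, namely 2 regions at Stac3. For Trdn, Stim1, Asph and Srl, a difference at the gene and one along its chromosome cannot be told apart from these lists. Among the 25 members on other chromosomes, increased regions were nearest to 10 (against 9.63% of protein-coding genes there) and decreased regions to 15 (against 18.3%). The share of increased regions among those nearest to a member was 31.6% (95% Wilson interval 19.1 to 47.5) off the 4 chromosomes, where 30.2% of all regions were increased.

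Regions nearest to the 36 genes were mostly inside genes. Of the 52, 35 were intronic (67.3%, against 49.8% of all regions), 12 intergenic (23.1% against 34.1%), 4 promoter-proximal, that is within 1 kb of a start of any gene (7.69% against 12.6%), and 1 in an untranslated region. The centre lay within the nearest gene itself in 37 (71.2%, against 51.9%). The 36 genes were also longer (median 60.9 kb against 17.4 kb), and the part of length in these shares was not tested. Only 3 regions were centred within 1 kb of a start of the gene to which they were assigned, those of Atp2a2, Abcc9 and the internal start of Trdn, and the median distance was 17.9 kb (19.1 kb for all regions). The median width was 927 bp, against 822 bp for all regions.

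Increased regions nearest to the 36 genes had a mean GC content of 40.6% ± 3.95 (SD over 22 regions) and decreased regions of 47.2% ± 5.31 (SD over 30 regions). The same order was seen over all regions, with means of 43.5% and 48.0%. It also held within genes. In each of the 8 genes that carried both directions the mean GC content was lower in the increased regions, as it was in 488 of 673 such genes overall (72.5%). The pair of values was 37.3% and 65.2% in Atp2a2, 44.9% and 50.5% in Cacng1, 42.9% and 47.0% in Kcnma1, 36.7% and 39.3% in Kcnj2, and 43.7% and 43.8% in Asph, where they hardly differed. The depth of the libraries and their dependence on GC content are unknown here, and their part in this was not tested.

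**Figure D4:**
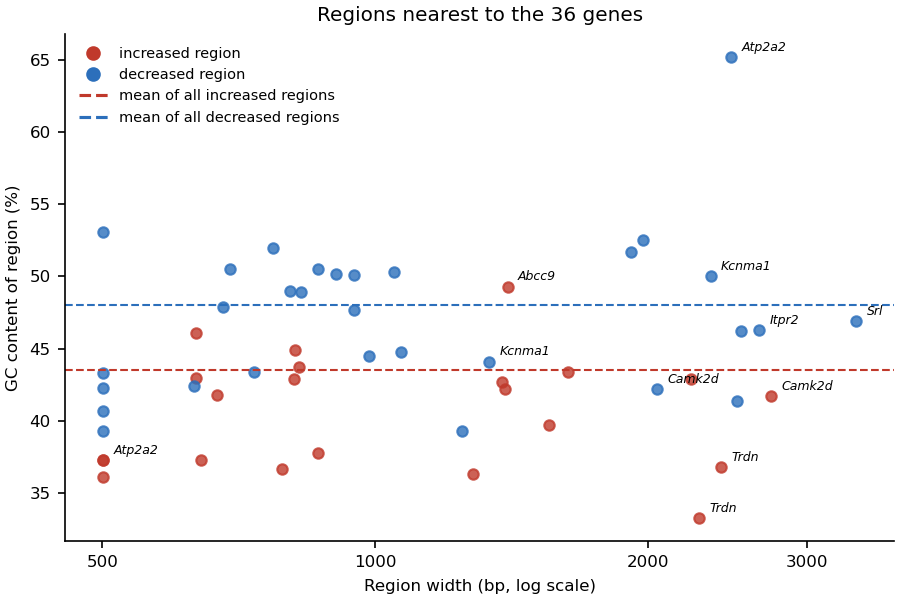
Each point is a region nearest to one of the 36 genes, with its width (bp, log scale) on the horizontal axis and its GC content (%) on the vertical axis, in red where increased and blue where decreased in Nrip1KO myotubes. Dashed lines are the means of all increased (43.5%) and all decreased (48.0%) regions. The region over the start of Atp2a2 stands at 65.2%, and the 2 wide regions of Trdn that are named lie at 33.3% and 36.8%.

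Genes with several regions often carried both directions. Of the 14 members with 2 or more nearest regions, 8 had both (57.1%), against 28.7% of the 2341 protein-coding genes with 2 or more. The other 6 had a single direction, increased in Trdn and Stim1 and decreased in Ryr3, Srl, Scn4a and Camk2a. Off chromosomes 4, 7, 10 and 16 both directions occurred in 7 of 10 members (70.0%, against 33.3%). Camk2d, Itpr2 and Stim1 had 5 or more regions, which is 8.33% of the members against 1.98% of all protein-coding genes. These genes are 250, 394 and 170 kb long, against a median of 17.4 kb for all protein-coding genes. Stim1 lies on chromosome 7. With starts of every gene type Camk2d kept 1 increased and 1 decreased region, Itpr2 1 and 3, and Stim1 none. Thus none of them then reached 5. The part of gene length in this was not tested.

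Motifs of transcription factors that act in muscle were then counted in the regions on both strands, as an E-box of the myogenic factors (CAGCTG), AP-1 (TGACTCA), TEAD (ACATTCC or GCATTCC), ERR (TCAAGGTCA), MEF2 and SRF. Matches of MEF2 and SRF, which both hold runs of A and T, may overlap. The E-box was the most frequent, in 9 of 22 increased regions (40.9%, against 44.1% of all increased regions) and 16 of 30 decreased regions (53.3%, against 57.4%). AP-1 was found in 6 increased (27.3% against 25.6%) and 8 decreased regions (26.7% against 24.7%), and TEAD in 6 (27.3% against 28.6%) and 7 (23.3% against 27.6%). These shares were close to those of the whole lists. MEF2 was found in 6 increased (27.3% against 21.4%) and 3 decreased regions (10.0% against 12.0%), SRF in 3 (13.6% against 6.38%) and 1 (3.33% against 5.74%), and ERR in 1 (4.55% against 1.97%) and 3 (10.0% against 3.37%). The 3 decreased regions with ERR were those over the start of Atp2a2, the wide region of Srl and an intronic region of Camk2d, and the increased one lay in Stim1. Over whole regions any of these motifs was found in 13 increased (59.1% against 73.3%) and 23 decreased regions (76.7% against 76.9%). Regions differ in width, so the central 500 bp was also counted. There no decreased and no increased member region held ERR (1.38% and 0.919% of all decreased and increased regions). MEF2 was there in 3 increased (13.6% against 12.2%) and 1 decreased (3.33% against 5.30%). SRF was there in 1 increased (4.55% against 2.71%) and no decreased region (2.38% of all). A match describes the letters and shows no binding.

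A wider list of 70 further genes of calcium handling, the triad and muscle channels had 16 increased and 56 decreased nearest regions (22.2% increased, against 35.0% of all regions). Increased regions were nearest to 11 of these genes (15.7%, against 10.6% of all protein-coding genes) and decreased regions to 23 (32.9%, against 17.8%). Within 100 kb the shares were 25.7% and 58.6%, against 24.1% and 42.7%, so that for increased regions the list was near the background. Nfatc2, a transcription factor activated by calcineurin, had 10 regions, all decreased, and the closest was 366 bp from a start. Nfatc1, also in the list, had 2 regions, both increased, the closest 8.30 kb from a start. Selenon, a selenoprotein of the reticulum in which mutations cause a congenital myopathy, had 6 decreased regions, 1 of them 13 bp from a start, on chromosome 4. Decreased regions also lay within 1 kb of a start in Cacnb2 (24 bp), Ank1 (45 bp), Mtm1 (248 bp), Cacna1h (291 bp) and Kcnj12 (627 bp). Atp2b1, a calcium pump of the surface membrane, had 5 increased regions, on chromosome 10.

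The cell types the cultures could hold were looked up by their marker genes, for which the lists can show a difference but no level. Of 8 myotube markers, Myh3 (1 increased) and Actn2 (4 decreased) had nearest regions, and Acta1, Ckm, Myog, Des, Tnnt3 and Myh8 had none, so that 25.0% had a region against 25.4% of all protein-coding genes. Within 100 kb, where 57.9% of all protein-coding genes had a region, 4 of the 8 did, and Ckm had 2 and Tnnt3 3 increased regions there, both on chromosome 7. Of 4 myoblast markers Pax7 had 8 decreased nearest regions and Myf5 1 increased, and Itga7 and Cdh15 had none. Pax7 lies on chromosome 4, where 7.53% of all regions were increased, and Myf5 on chromosome 10, where 69.1% were. The part of the chromosome in the regions of Pax7 and Myf5 was not tested. Among 5 fibroblast markers 4 had nearest regions (80.0%). Col3a1 had 3 and Dcn, on chromosome 10, had 1 increased region, and Thy1 had 2 and Col1a1 1 decreased. All 3 endothelial markers had nearest regions (100%), as Kdr had 1 increased, Pecam1 1 decreased and Cdh5 5 decreased regions. The part of cell composition in the regions of the 36 genes was not tested.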

How the data were processed

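CUT&RUN libraries of H3K27ac and IgG were made from Nrip1KO and Ctrl primary myotubes, 2 per group. Per the submitters' processing notes and the methods, the authors aligned paired reads to mm10 with BWA-MEM2 (2.2.1) and called broad peaks and regions with a 2-fold or greater difference with HOMER (4.11). How the replicates and IgG entered the calls is not given in the sources used here, and the labels and the methods name different suppliers of the H3K27ac antibody. The deposited lists give chromosome, start, end and a score. The deposited score is the same in all regions and ranks nothing. Without values per library, the part of depth, reaction efficiency or DNA copy number in the calls was not tested. The Wilson intervals cover counting error only.

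Positions are counted from 1. Each region was assigned by its centre to the nearest transcript start of a protein-coding gene (GENCODE M21), and 1 region that lies on no assembled chromosome was omitted. GC content and motifs were read from the GRCm38.p6 sequence (RefSeq) with pysam 0.24.0, and intervals were computed with scipy 1.17.1 in Python 3.11.15. Assignment was tested on simulated regions against a direct search. All counts are descriptions beside the same count over all protein-coding genes or regions, with no test. The 36 genes and the lists were chosen with earlier results of these data known. Coordinates are given for the region closest to each gene where one lay within 100 kb (by distance alone for Camk2a), regions within 1 kb of a start, the widest per direction and all regions of the 3 genes with the most. Alternatives covered the annotation, the start used, the region edge, windows of 50 and 250 kb, a width of at least 1 kb, joining within 10 kb, gene bodies, the central 500 bp for motifs, and leaving out chromosomes 4, 7, 10 and 16. Starts of protein-coding transcripts alone were added after seeing the data.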

Additional observations from a re-analysis of the deposited data

How the results depend on the processing

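Of 61 values recomputed under alternatives, 50 stayed within 1.5 times of the reported count, or within the reported Wilson interval for the percentage, and 11 did not. Members with an increased nearest region numbered 13, but 7 with starts of all annotated genes and 6 among regions at least 1 kb wide, and increased regions nearest to a member numbered 22, but 10 with starts of all annotated genes, 14 within 50 kb, 10 at least 1 kb wide and 12 without chromosomes 4, 7, 10 and 16. Members with a decreased nearest region fell from 17 to 10, and decreased regions from 30 to 13, at a width of at least 1 kb. Members with an increased region within 100 kb numbered 15, but 29 at 250 kb and 6 at a width of at least 1 kb. The percentage of increased regions within 100 kb was 36.8, but 22.6 without chromosomes 4, 7, 10 and 16. The lower counts at 1 kb, at 50 kb and without the chromosomes come from fewer regions, and the lower ones with all annotated genes from more starts competing for a region. The share of members stayed above that of protein-coding genes under each alternative, in both directions (at 1 kb, 16.7% against 4.24% increased and 27.8% against 9.11% decreased).

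With starts of protein-coding transcripts alone, an alternative chosen after seeing the data, increased regions were nearest to 14 members and decreased regions to 17. No paired analysis was possible because the lists hold no value per library, and for the same reason no replicate could be left out. Depth could not be assessed, and a gene without a region may have changed by less than the 2-fold threshold or may carry no H3K27ac.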
